A study of Mus musculus with 18 samples.

Results

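The levels of 10 genes of the unfolded protein response, chosen by name, were followed in bulk RNA sequencing (RNA-seq) of endothelial cells (ECs) sorted from mouse breast tissue. These cells form the inner lining of vessels. The genes were Hspa5, Hsp90b1, Dnajb9, Pdia4, Herpud1, Xbp1, Atf4, Atf3, Ddit3 and Trib3, which are 10 of the 16248 genes listed. All 10 passed the filter on low values, and so were among the 13983 genes tested.

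The unfolded protein response is the reaction of a cell to unfolded protein in the endoplasmic reticulum (ER), the compartment in which secreted and membrane proteins fold. It has sensors in the ER membrane. IRE1 splices the messenger RNA of the factor XBP1, PERK phosphorylates the initiation factor eIF2α so that the factor ATF4 is translated while most translation slows, and ATF6 is cut by proteases and enters the nucleus as a factor. These arms raise ER chaperones and the machinery that degrades misfolded protein, and under lasting stress the PERK arm also raises the pro-apoptotic factor CHOP, the product of Ddit3. Other eIF2α kinases feed into the ATF4 arm without ER stress, which is then called the integrated stress response. ECs secrete matrix and coagulation proteins, and so fold much protein in the ER.

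The study set cGAMP against phosphate-buffered saline (PBS) in ECs of 3 breast tissues. cGAMP is a cyclic dinucleotide and an agonist of STING, a protein of the cytosolic DNA-sensing pathway. The 6 groups held 3 libraries each, and all cells were collected 3 h after injection from female mice of the FVB strain. Wild type mice, whose age was not stated, gave the normal ECs, which were taken from mammary fat pads injected with PBS or cGAMP. MMTV-PyMT ECs came from spontaneous breast tumours of MMTV-PyMT mice given PBS or cGAMP, which were 9 weeks old at the start of treatment. In these mice the MMTV promoter drives the PyMT oncogene in the mammary epithelium, so their ECs carry the transgene but are not its target cell. Implanted ECs came from tumours in wild type mice given PBS or cGAMP. These tumours were grown from MMTV-PyMT tumour cells that had been expanded in culture for 2 days, mixed with Matrigel and placed in the fat pad of mice 8 to 9 weeks old. A legend of the study gives 3 mice per group and 3 independent experiments, without saying which library belongs to which, so p-values measure the spread between these libraries.

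Levels are given in FPKM, fragments per kilobase of exon with a scaling for library depth. Changes are log2 differences of FPKM + 1 with their standard error (SE), which understates changes of genes with low values. A gene passed when its p-value from limma, adjusted with the Benjamini-Hochberg method over all 13983 genes, was under 0.05. Comparisons share libraries, since each PBS group serves several of them.

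Recovered reads ranged from 9124935 to 12129416 per library, a 1.33-fold range, and members held from 39 reads (Trib3, normal cGAMP 2) to 12244 reads (Hspa5, implanted cGAMP 3) in a library. All 8 endothelial markers were in the table, with a summed level of 644 to 1690 FPKM over the 18 libraries. The sum was 871 to 994 FPKM in normal PBS, 644 to 795 in MMTV-PyMT PBS and 1000 to 1260 in implanted PBS. Markers of other cells were present as well. The epithelial sum exceeded the endothelial one in each MMTV-PyMT PBS library, as did the mural sum in each normal PBS library. The part of these cells in tissue differences under PBS was not tested. Epithelial markers summed to 892 to 1010 FPKM in MMTV-PyMT PBS, to 322 to 410 in normal PBS and to 384 to 546 in implanted PBS, with all 8 listed. The 6 mural cell markers summed to 991 to 1110 FPKM in normal PBS, 221 to 306 in MMTV-PyMT PBS and 202 to 244 in implanted PBS. Leukocyte markers (7 of 8 in the table) reached 228 FPKM in implanted cGAMP 2 against 57.0 and 49.2 in implanted cGAMP 1 and 3. Other sums moved in implanted ECs too. Fibroblast markers were 494, 604 and 250 FPKM under cGAMP against 235 to 264 FPKM under PBS, mural markers 432, 313 and 169 FPKM against 202 to 244 FPKM, and plasma cell markers (3 of 6 in the table) 41.9 to 61.5 FPKM against 30.4 to 35.9 FPKM. Their part in the changes of implanted ECs under cGAMP was not tested. The sort had removed CD45-positive cells, and in bulk RNA fewer cells of a type cannot be told apart from less RNA per cell. Implanted cGAMP 1 and 2 differed most among all replicate pairs.

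The 250 bases before the RefSeq start of each member were searched on both strands, with the next 50 bases, for motifs known from this response, and all 10 members had an entry (RefSeq, GRCm38.p6). The ER stress response element (ERSE) is CCAAT and CCACG with 9 bases between them, and the related ERSE-II is ATTGG and CCACG with 1 base between. The others were the C/EBP-ATF response element (CARE) TGATGCAA, the cyclic AMP response element (CRE) TGACGTCA and the unfolded protein response element (UPRE) TGACGTGG. An ERSE stood in Hspa5 and Hsp90b1, the latter with 2, an ERSE-II in Herpud1 and a CARE in Herpud1 and Atf3. Of 32851 RefSeq promoters of the same length, 0.119% held an ERSE, 0.0365% an ERSE-II, 0.895% a CARE, 1.79% a CRE and 0.676% a UPRE. The 4 promoters with a match are shown because their genes did not move together. Herpud1 and Atf3 both hold a CARE, and under cGAMP the former fell and the latter rose in implanted ECs. They run 5′ to 3′ on the strand of the gene, with the letters of each match in capitals. A match describes these letters and is not a binding site. The Atf3 window lies within its GENCODE M21 gene model (chr1:191170296-191218039, minus strand), whose own upstream start was not searched.
Hspa5 (chr2:34771840-34772089, plus strand): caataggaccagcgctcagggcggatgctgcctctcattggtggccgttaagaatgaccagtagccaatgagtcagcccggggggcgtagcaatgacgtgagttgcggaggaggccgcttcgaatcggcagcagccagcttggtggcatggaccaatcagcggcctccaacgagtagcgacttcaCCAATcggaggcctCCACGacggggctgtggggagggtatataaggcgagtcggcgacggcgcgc
Hsp90b1 (chr10:86705445-86705694, minus strand): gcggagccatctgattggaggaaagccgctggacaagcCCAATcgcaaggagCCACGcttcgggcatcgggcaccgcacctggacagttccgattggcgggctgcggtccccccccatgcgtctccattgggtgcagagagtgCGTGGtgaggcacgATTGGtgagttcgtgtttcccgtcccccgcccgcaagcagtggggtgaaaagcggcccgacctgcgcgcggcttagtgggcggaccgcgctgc
Herpud1 (chr8:94386179-94386428, plus strand): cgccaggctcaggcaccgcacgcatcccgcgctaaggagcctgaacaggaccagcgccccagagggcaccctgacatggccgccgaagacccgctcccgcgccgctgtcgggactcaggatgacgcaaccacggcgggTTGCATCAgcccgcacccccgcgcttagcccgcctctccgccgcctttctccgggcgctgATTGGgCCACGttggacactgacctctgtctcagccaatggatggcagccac
Atf3 (chr1:191183334-191183583, minus strand): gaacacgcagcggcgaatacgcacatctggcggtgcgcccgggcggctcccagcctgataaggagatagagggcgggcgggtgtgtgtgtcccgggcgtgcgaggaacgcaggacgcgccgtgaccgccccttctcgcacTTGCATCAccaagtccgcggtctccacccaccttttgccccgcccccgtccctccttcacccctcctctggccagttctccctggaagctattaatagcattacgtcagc

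The members did not move as a block under cGAMP. In normal ECs, Atf4 rose and Trib3, Pdia4, Herpud1 and Hsp90b1 fell. In MMTV-PyMT ECs, Atf3 rose and no other member passed. In implanted ECs, Atf3, Atf4 and Hspa5 rose, and Xbp1, Herpud1 and Pdia4 fell. Ddit3 and Dnajb9 passed in none of these comparisons with the deposited scaling.

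In normal ECs 1 of 10 members rose and 4 fell, against 13.7% of all tested genes that rose and 18.2% that fell. For MMTV-PyMT ECs the counts were 1 and 0 with limma, against 7.42% and 4.57%. There 2 members (Hsp90b1 and Pdia4) were lower at an unadjusted p under 0.05, and voom on recovered reads also called 0 lower. For implanted ECs they were 3 and 3, against 20.3% and 18.8%. The median change of the 10 members was 0.00 (normal), -0.07 (MMTV-PyMT) and -0.04 (implanted), against -0.04, -0.04 and -0.01 over all tested genes.

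The denominators of the deposited FPKM were proportional to median-of-ratios size factors of the recovered reads (to within 0.012%), so the values were already centred on a typical gene. Scaling by total reads instead moved the median of all genes under cGAMP to -0.05 (normal), -0.14 (MMTV-PyMT) and -0.25 (implanted). Under it the members that rose and fell were 1 and 3 for MMTV-PyMT ECs (the latter Hsp90b1, Pdia4 and Herpud1) and 2 and 5 for implanted ECs.

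**Figure D1:**
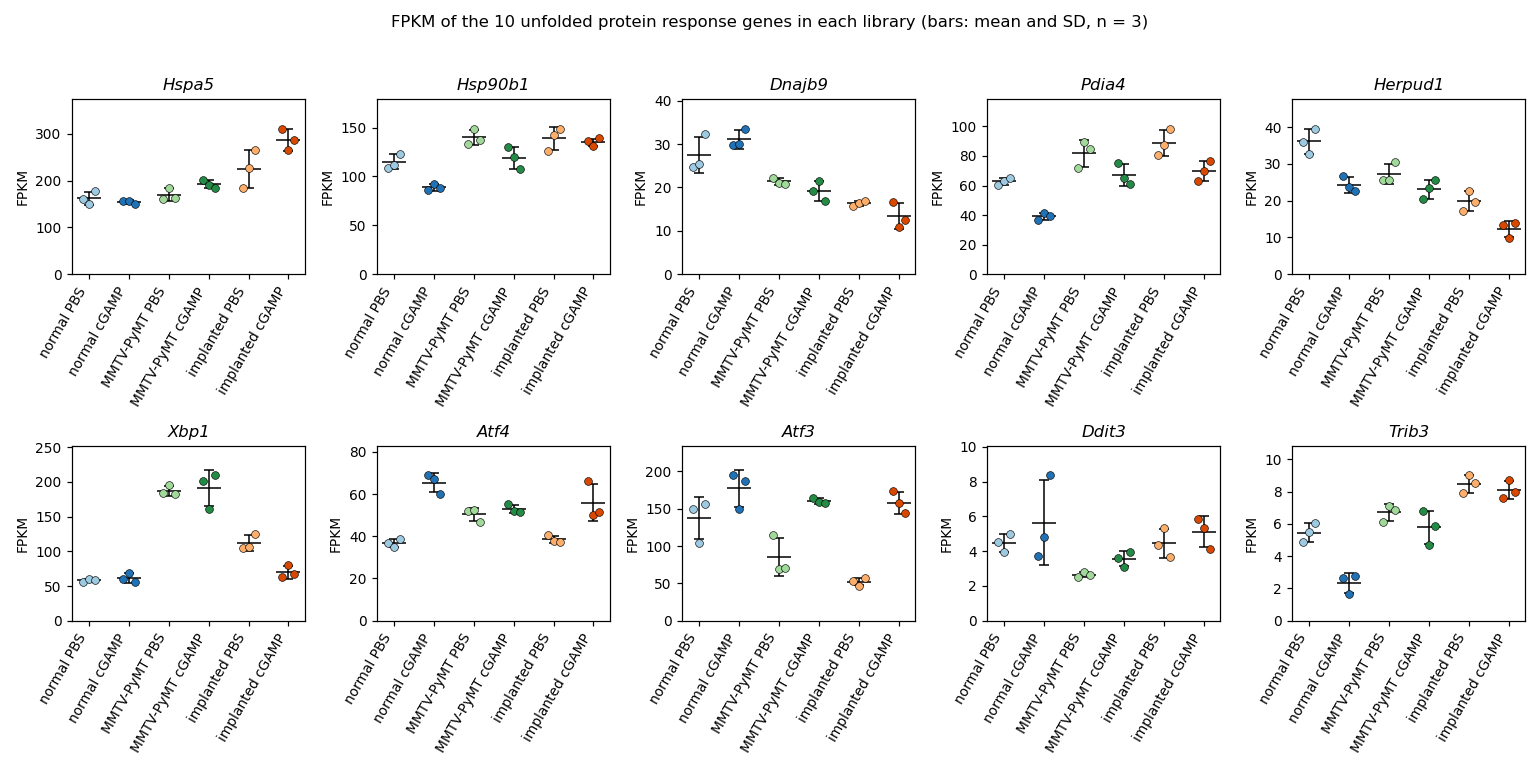
FPKM (linear axes from 0) of each of the 10 genes in each of the 18 libraries, as points, with the mean and SD of the 3 libraries of a group as bars. Xbp1 is highest in the MMTV-PyMT groups, Trib3 lowest in normal cGAMP, and Atf3 lowest in implanted PBS.

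Hspa5 encodes BiP, the main chaperone of the ER lumen, which also holds the sensors inactive (chr2:34771970-34777547, GENCODE M21 of GRCm38). It had the highest mean level of all members in normal PBS, in MMTV-PyMT cGAMP and in both implanted groups. Its level was 160, 149 and 178 FPKM in normal PBS and 157, 156 and 149 FPKM in normal cGAMP. In MMTV-PyMT ECs it was 161, 185 and 163 FPKM under PBS and 201, 190 and 184 FPKM under cGAMP. Both pairs of groups overlapped, and the changes were -0.07 ± 0.11 (SE, adjusted p = 0.655) and 0.18 ± 0.11 (SE, adjusted p = 0.34). In implanted ECs, Hspa5 was 185, 227 and 265 FPKM under PBS and 311, 265 and 286 FPKM under cGAMP. The highest PBS library reached the lowest cGAMP library. The rise was 0.36 ± 0.11 (SE, adjusted p = 0.0185), and it did not pass without implanted PBS 1 (0.23, adjusted p = 0.112) or without implanted cGAMP 1 (0.30, adjusted p = 0.074), nor with only these groups in the fit (adjusted p = 0.125). Scaled by total reads the change was 0.04 (adjusted p = 0.757), which is 0.29 above the median of all genes under that scaling.

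Hsp90b1 encodes GRP94, the HSP90 chaperone of the ER (chr10:86690209-86705509). Normal PBS libraries held 109, 112 and 123 FPKM and normal cGAMP libraries 85.7, 92.4 and 88.4 FPKM. The groups did not overlap, and the fall was -0.36 ± 0.08 (SE, adjusted p = 0.00405). In MMTV-PyMT ECs the level was 133, 149 and 137 FPKM under PBS and 130, 120 and 108 FPKM under cGAMP, also without overlap, but the change of -0.23 ± 0.08 did not pass (adjusted p = 0.0909). In implanted ECs the groups overlapped (126, 142 and 148 FPKM under PBS against 136, 131 and 139 FPKM), with a change of -0.03 ± 0.08 (SE, adjusted p = 0.802). Scaled by total reads, that change passed (-0.35, adjusted p = 0.00341), at -0.10 relative to the median of all genes. Of the 4032 exon bases of Hsp90b1, 415 (10.3%) overlap a pseudogene on the opposite strand, 1810014B01Rik, and whether counting used the strand was not stated.

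Pdia4 encodes ERp72, a protein disulfide isomerase (chr6:47796141-47813430). It was 60.4, 63.4 and 64.9 FPKM in normal PBS and 36.9, 41.2 and 39.7 FPKM in normal cGAMP. All cGAMP libraries lay below all PBS libraries, and Pdia4 fell by 0.67 ± 0.10 on the log2 scale (SE, adjusted p = 0.000187). Implanted ECs held 80.8, 87.2 and 98.6 FPKM under PBS and 62.9, 69.7 and 76.6 FPKM under cGAMP. This fall, again without overlap, was -0.34 ± 0.10 (SE, adjusted p = 0.015). It did not pass without implanted PBS 3 (-0.27, adjusted p = 0.0774), without implanted cGAMP 1 (-0.27, adjusted p = 0.0702) or with only these groups in the fit (adjusted p = 0.0678). Scaled by total reads it was -0.66 (adjusted p = 0.000266), which is -0.41 relative to the median of all genes. MMTV-PyMT ECs held 71.7, 89.3 and 84.5 FPKM under PBS and 75.1, 64.8 and 61.3 FPKM under cGAMP, which overlapped (change -0.28 ± 0.10, adjusted p = 0.0891).

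Dnajb9 encodes ERdj4, a co-chaperone of BiP and a target of spliced XBP1 (chr12:44205559-44210326). Its changes under cGAMP were 0.18 ± 0.13 (normal), -0.15 ± 0.13 (MMTV-PyMT) and -0.29 ± 0.13 (implanted), each with its SE, and none passed (adjusted p = 0.31, 0.494 and 0.0841). Scaled by total reads, the implanted change passed (-0.59, adjusted p = 0.000449), at -0.34 relative to the median of all genes. Levels ranged from 10.8 FPKM in implanted cGAMP 2 to 33.6 FPKM in normal cGAMP 3. Every normal library lay above every implanted library.

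Herpud1 encodes a membrane protein of the ER-associated degradation complex (chr8:94386438-94395377). Normal PBS libraries held 36.0, 32.7 and 39.6 FPKM and normal cGAMP libraries 26.8, 23.6 and 22.6 FPKM. In implanted ECs the level was 17.2, 22.7 and 19.6 FPKM under PBS and 13.4, 9.73 and 13.8 FPKM under cGAMP. In both tissues the groups did not overlap, and Herpud1 fell, by 0.55 ± 0.13 (SE, adjusted p = 0.00498) and by 0.65 ± 0.13 (SE, adjusted p = 0.00102). In MMTV-PyMT ECs, with 25.7, 25.7 and 30.5 FPKM under PBS and 20.4, 23.4 and 25.5 FPKM under cGAMP, the change was -0.23 ± 0.13 (SE, adjusted p = 0.278), although the groups did not overlap.

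Xbp1 encodes the factor whose messenger RNA is spliced by IRE1 (chr11:5520659-5525893). Gene-level FPKM counts both the spliced and the unspliced form, so splicing was not measured. Implanted ECs held 105, 106 and 125 FPKM under PBS and 62.5, 80.4 and 67.0 FPKM under cGAMP. The groups did not overlap and Xbp1 fell by 0.68 ± 0.12 (SE, adjusted p = 0.000218). Normal ECs held 56.4, 60.2 and 58.6 FPKM under PBS and 59.5, 69.4 and 55.6 FPKM under cGAMP, and MMTV-PyMT ECs 184, 195 and 183 FPKM under PBS and 202, 161 and 210 FPKM under cGAMP. Both pairs overlapped, with changes of 0.07 ± 0.12 (SE, adjusted p = 0.695) and 0.02 ± 0.12 (SE, adjusted p = 0.945). Without normal cGAMP 2 the first was -0.02, and without MMTV-PyMT cGAMP 1 or 3 the second was -0.03 or -0.06. Implanted cGAMP libraries held Xbp1 at a level that overlapped normal cGAMP. Epithelial markers summed to 258, 558 and 477 FPKM in implanted cGAMP 1, 2 and 3, and to 546, 384 and 482 FPKM in implanted PBS 1, 2 and 3. Of the 8 markers, Elf5 (from 23.6 to 9.77 FPKM on average, -1.29, adjusted p = 0.0009) and Wap (from 26.2 to 11.1 FPKM, -1.15, adjusted p = 0.033) fell with cGAMP in implanted ECs, both without overlap, and the other 6 did not pass, with changes from -0.35 (Krt5) to 0.16 (Epcam). Both are genes of secretory mammary epithelium, and the part of such cells in the fall of Xbp1 was not tested.

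Atf4 encodes the factor that is translated when eIF2α is phosphorylated (chr15:80255184-80257541). FPKM measures its transcript only, and its translation was not measured. Normal PBS libraries held 36.8, 34.9 and 38.7 FPKM and normal cGAMP libraries 69.0, 67.0 and 60.2 FPKM. This rise of 0.81 ± 0.09 (SE, adjusted p = 1.32e-05) was 1.75-fold, with no overlap. In implanted ECs, Atf4 was 40.4, 37.8 and 37.3 FPKM under PBS and 66.1, 49.9 and 51.7 FPKM under cGAMP, a rise of 0.52 ± 0.09 (SE, adjusted p = 0.000428), also with no overlap. Scaled by total reads this rise was 0.20 (adjusted p = 0.0353), which is 0.45 above the median of all genes. In MMTV-PyMT ECs the level was 52.0, 52.4 and 46.7 FPKM under PBS and 55.2, 51.9 and 51.4 FPKM under cGAMP. These overlapped, with a change of 0.07 ± 0.09 (SE, adjusted p = 0.693), which was -0.06 when scaled by total reads. MMTV-PyMT PBS libraries lay between the PBS and the cGAMP libraries of normal ECs.

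Atf3 encodes a stress-induced factor that ATF4 raises and that many other signals also induce (chr1:191170296-191218039). Implanted ECs held 52.9, 47.0 and 57.4 FPKM under PBS and 173, 157 and 144 FPKM under cGAMP. The 2.98-fold rise (1.57 ± 0.18, SE, adjusted p = 3.69e-06) was the largest change under cGAMP among the members. MMTV-PyMT ECs held 115, 69.7 and 70.5 FPKM under PBS and 164, 159 and 157 FPKM under cGAMP, a rise of 0.94 ± 0.18 (SE, adjusted p = 0.00224). In both tumour tissues all cGAMP libraries lay above all PBS libraries. Normal ECs overlapped, with 149, 104 and 156 FPKM under PBS and 195, 149 and 187 FPKM under cGAMP, and the change of 0.38 ± 0.18 did not pass (adjusted p = 0.114). Under cGAMP the levels of all 3 tissues overlapped, between 144 and 195 FPKM. Immediate-early genes, which dissociation of tissue can induce, were also lower in implanted than in normal ECs under PBS. Of 11 tested, 10 were lower and 1 higher, where 23.6% of all tested genes were lower and 25% higher. Under cGAMP in implanted ECs, 3 of the 11 fell and 1 rose (Btg2 by -0.71 and Dusp1 by 0.43). Of all tested genes 18.8% fell and 20.3% rose there. The part of immediate-early genes in the Atf3 values was not tested.

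Ddit3 encodes CHOP, the factor tied to apoptosis under lasting ER stress (chr10:127290774-127296288). It was a low member, with 52 to 156 reads per library. Normal ECs held 4.50, 3.94 and 4.96 FPKM under PBS and 3.72, 4.83 and 8.38 FPKM under cGAMP. The 8.38 FPKM of normal cGAMP 3 stood above all other libraries, and without it the change of 0.22 ± 0.19 (SE, adjusted p = 0.402) was -0.06. MMTV-PyMT ECs held 2.51, 2.80 and 2.62 FPKM under PBS and 3.61, 3.09 and 3.96 FPKM under cGAMP, which did not overlap, and the change of 0.32 ± 0.19 did not pass (adjusted p = 0.31). Implanted ECs overlapped, with 4.37, 5.34 and 3.66 FPKM under PBS and 5.86, 5.34 and 4.15 FPKM under cGAMP (change 0.17 ± 0.19, adjusted p = 0.522, and -0.10 when scaled by total reads). The 95% intervals of the change reached from -0.18 to 0.63, from -0.09 to 0.73 and from -0.24 to 0.57 in the same order of tissues, so a rise of 1 log2 unit lay outside all of them on this scale. Of the 1713 exon bases, 105 (6.1%) are shared with another gene model of the same name and 68 (4%) with Mars on the opposite strand.

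Trib3 encodes a pseudokinase that is raised by ATF4 and CHOP and dampens them (chr2:152337422-152344032). Normal PBS libraries held 4.86, 5.48 and 6.04 FPKM and normal cGAMP libraries 2.63, 1.63 and 2.77 FPKM. Trib3 thus fell while Atf4 rose in the same libraries, by 0.96 ± 0.13 on the log2 scale (SE, adjusted p = 7.33e-05), and the groups did not overlap. MMTV-PyMT ECs held 6.13, 7.12 and 6.89 FPKM under PBS and 6.77, 4.70 and 5.89 FPKM under cGAMP. Here and in implanted ECs (7.91, 9.03 and 8.52 FPKM, and 7.60, 8.73 and 8.0 FPKM) the groups overlapped. Their changes were -0.19 ± 0.13 (SE, adjusted p = 0.38) and -0.06 ± 0.13 (SE, adjusted p = 0.753).

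**Figure D2:**
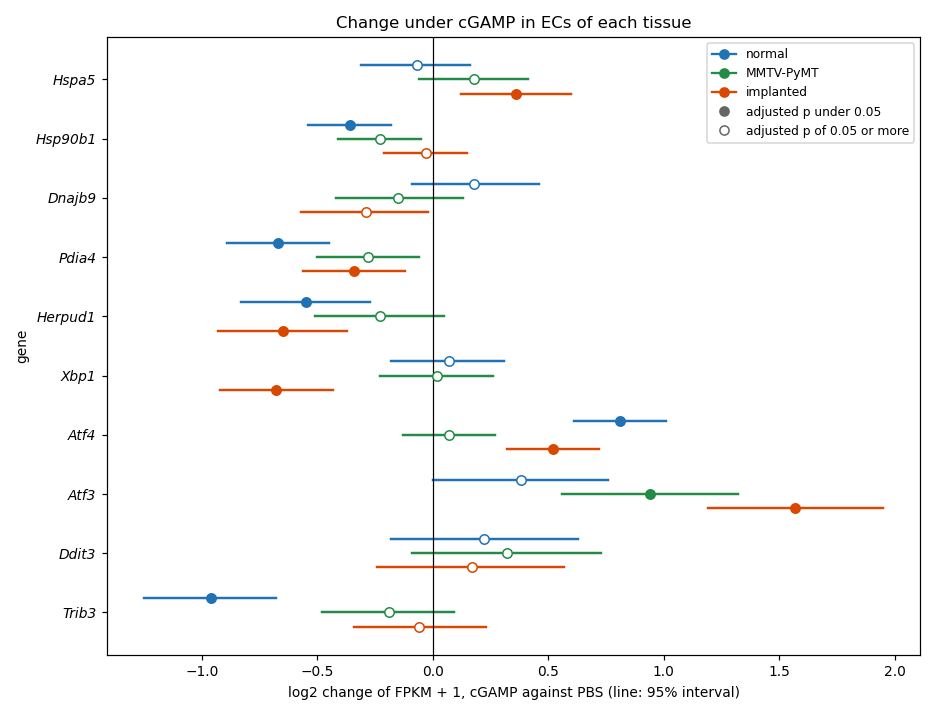
Log2 change of FPKM + 1 under cGAMP against PBS (x axis) for each gene (y axis) in ECs of the 3 tissues. Lines are 95% intervals, with filled points where the adjusted p was under 0.05. Atf3 has its largest change in implanted ECs (1.57), Trib3 changes only in normal ECs past the test (-0.96), and Xbp1 only in implanted ECs (-0.68).

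The effect of cGAMP was compared between tissues with the difference of the changes. Against normal ECs, MMTV-PyMT ECs had a smaller change of Atf4 (difference -0.74 ± 0.13, SE, adjusted p = 0.00465) and a higher change of Trib3 (0.77 ± 0.19, SE, adjusted p = 0.0211). The Trib3 difference did not pass without normal PBS 3 (0.71, adjusted p = 0.0624), without MMTV-PyMT PBS 1 (0.71, adjusted p = 0.0502) or without MMTV-PyMT cGAMP 3 (0.75, adjusted p = 0.0537). So 1 of 10 members differed upward and 1 downward, where 5.48% of all genes did upward and 2.9% downward.

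Between implanted and normal ECs, the change of Atf3 was higher by 1.19 ± 0.25 (SE, adjusted p = 0.00388) and that of Trib3 by 0.90 ± 0.19 (SE, adjusted p = 0.00353), and that of Xbp1 differed by -0.75 ± 0.16 (SE, adjusted p = 0.00465). Thus 2 members differed upward and 1 downward, against 12.5% and 6.09% of all genes, and with scaling by total reads 2 differed upward and 3 downward. The Hspa5 difference of 0.43 ± 0.16 did not pass (adjusted p = 0.0688).

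Between implanted and MMTV-PyMT ECs, the change of Xbp1 differed by -0.70 ± 0.16 (SE, adjusted p = 0.0106) and that of Atf4 by 0.45 ± 0.13 (SE, adjusted p = 0.0408). The Atf4 difference did not pass in 11 of 25 alternatives (adjusted p from 0.0501 to 0.125). Among these were scaling by total reads (0.27), the fit of only these groups (0.45), and fits without 1 library, namely normal PBS 1 or 2, implanted PBS 2 or 3, implanted cGAMP 1, MMTV-PyMT PBS 1 or 2, or MMTV-PyMT cGAMP 2 or 3 (0.32 to 0.45). The counts of 1 member upward and 1 downward compare with 7.34% and 3.72% of all genes, and with scaling by total reads 0 differed upward and 2 (Xbp1 and Herpud1) downward. For Atf3 the difference of 0.63 ± 0.25 did not pass (adjusted p = 0.128), so a larger rise in implanted than in MMTV-PyMT ECs was not shown. For Ddit3 no difference between tissues passed, the intervals being -0.48 to 0.67, -0.64 to 0.52 and -0.73 to 0.42.

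Under PBS the members already differed between tissues. In MMTV-PyMT against normal ECs, 4 members were higher and 4 lower, where 29.8% of all genes were higher and 26.6% lower. Xbp1 was 3.17-fold higher, at 187 ± 6.92 FPKM (SD, n = 3) against 58.4 ± 1.91 FPKM (SD, n = 3), a difference of 1.67 ± 0.12 (SE, adjusted p = 1.63e-08). Epithelial markers were also highest in MMTV-PyMT PBS (892 to 1010 FPKM against 322 to 410), and mammary luminal cells express Xbp1. In MMTV-PyMT cGAMP 1, 2 and 3 the epithelial sum was 900, 651 and 792 FPKM, and Xbp1 was 202, 161 and 210 FPKM. The part of epithelial RNA in the Xbp1 level was not tested.

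Atf4 (0.44 ± 0.09, SE, adjusted p = 0.000923), Pdia4 (0.37 ± 0.10, SE, adjusted p = 0.00636) and Hsp90b1 (0.28 ± 0.08, SE, adjusted p = 0.00956) were the other members higher in MMTV-PyMT ECs, each with no overlap. Lower were Atf3 (-0.70 ± 0.18, SE, adjusted p = 0.00365), Ddit3 (-0.58 ± 0.19, SE, adjusted p = 0.0169), Herpud1 (-0.39 ± 0.13, SE, adjusted p = 0.0189) and Dnajb9 (-0.34 ± 0.13, SE, adjusted p = 0.0339). The last 3 did not pass without normal PBS 3, at -0.52 (adjusted p = 0.0615), -0.32 (adjusted p = 0.0804) and -0.22 (adjusted p = 0.177). Herpud1 also did not pass without MMTV-PyMT PBS 1 or 2 (-0.35 in both), nor Dnajb9 without MMTV-PyMT PBS 2 or 3 (-0.33 in both).

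In implanted against normal ECs, 5 members were higher and 3 lower, where 25% of all genes were higher and 23.6% lower. Xbp1 was 1.90-fold higher (0.93 ± 0.12, SE, adjusted p = 7.17e-06), and Trib3 (0.56 ± 0.13), Pdia4 (0.49 ± 0.10), Hspa5 (0.46 ± 0.11) and Hsp90b1 (0.27 ± 0.08) were higher as well, all without overlap (adjusted p = 0.0027, 0.00101, 0.00302 and 0.0147). Hsp90b1 did not pass with scaling by total reads (0.09, adjusted p = 0.398), without normal PBS 1 (0.23, adjusted p = 0.0624) or without implanted PBS 3 (0.22, adjusted p = 0.0688). Atf3 was lower by -1.35 ± 0.18 (SE, adjusted p = 1.43e-05), Herpud1 by -0.84 ± 0.13 (SE, adjusted p = 7.39e-05) and Dnajb9 by -0.70 ± 0.13 (SE, adjusted p = 0.000301). The chaperones thus did not share a direction, since Hspa5, Hsp90b1 and Pdia4 were higher and Dnajb9 lower.

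In implanted against MMTV-PyMT ECs, 2 members were higher and 5 lower, where 20.8% of all genes were higher and 24.6% lower. With scaling by total reads 0 were higher and 5 lower. Higher were Ddit3 (0.57 ± 0.19, SE, adjusted p = 0.0233) and Hspa5 (0.40 ± 0.11, SE, adjusted p = 0.00937). Lower were Xbp1 (-0.74 ± 0.12, SE, adjusted p = 0.000105), Atf3 (-0.65 ± 0.18, SE, adjusted p = 0.00769), Herpud1 (-0.45 ± 0.13, SE, adjusted p = 0.0117), Atf4 (-0.38 ± 0.09, SE, adjusted p = 0.00408) and Dnajb9 (-0.36 ± 0.13, SE, adjusted p = 0.0309). Hspa5 did not pass without implanted PBS 3 (0.27) or scaled by total reads (0.24), Herpud1 without implanted PBS 1 (-0.35) or MMTV-PyMT PBS 3 (-0.37), and Dnajb9 without any 1 of these 6 libraries (-0.39 to -0.34). Ddit3 did not pass without implanted PBS 2 (0.46), without MMTV-PyMT PBS 1 (0.55) or 3 (0.57), or scaled by total reads (0.46).

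**Figure D3:**
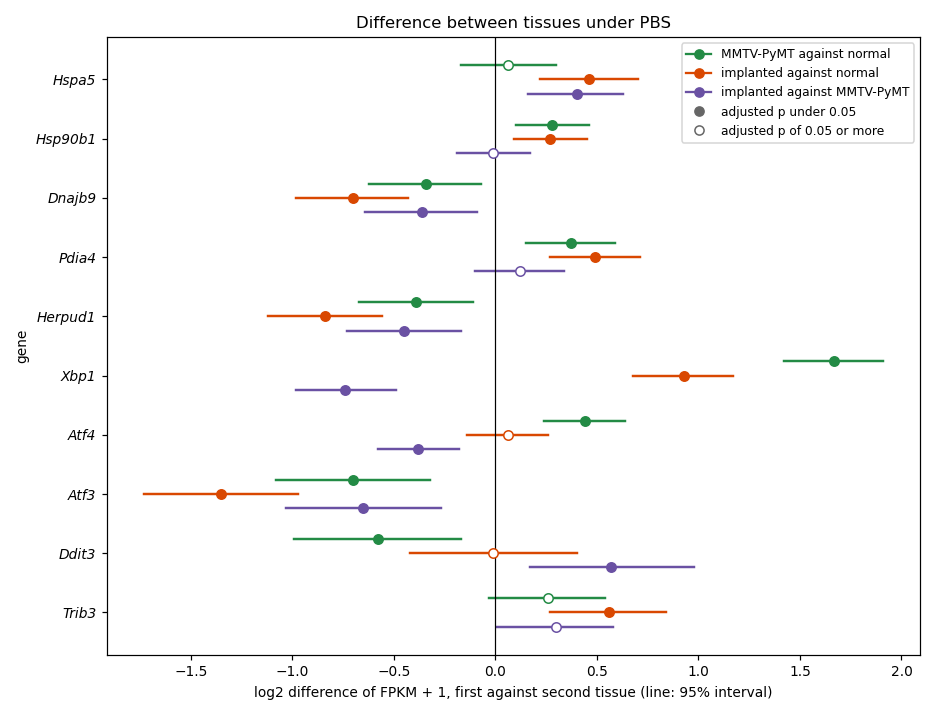
Log2 difference of FPKM + 1 between tissues under PBS (x axis) for each gene (y axis), with 95% intervals as lines and filled points where the adjusted p was under 0.05. Xbp1 lies farthest to the right (1.67 in MMTV-PyMT against normal ECs) and Atf3 farthest to the left (-1.35 in implanted against normal ECs).

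Ordered by mean level over the 6 groups, Xbp1 ran from MMTV-PyMT cGAMP (191 FPKM) and MMTV-PyMT PBS (187) through implanted PBS (112) to implanted cGAMP (69.9), normal cGAMP (61.5) and normal PBS (58.4). The first 2 groups overlapped, as did the last 3 each with its neighbour, and implanted PBS stood apart from both sides. Atf4 ran from normal cGAMP (65.4 FPKM) through implanted cGAMP (55.9), MMTV-PyMT cGAMP (52.9) and MMTV-PyMT PBS (50.4) to implanted PBS (38.5) and normal PBS (36.8), with its only gap between MMTV-PyMT PBS and implanted PBS. Trib3 ran from implanted PBS (8.49 FPKM) to normal cGAMP (2.34), and that lowest group overlapped no other. Hspa5 ran from implanted cGAMP (287 FPKM) to normal cGAMP (154), with every neighbouring pair overlapping. Over the 18 libraries the range of a member was from 1.73-fold (Hsp90b1) to 5.54-fold (Trib3).

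Beyond the members, 68 other genes of the pathway were listed by role, and all 68 were in the table and tested. The genes that rose and fell under cGAMP numbered 12 and 21 (normal), 9 and 2 (MMTV-PyMT) and 14 and 14 (implanted), beside 13.7% and 18.2%, 7.42% and 4.57%, and 20.3% and 18.8% of all tested genes. Their median changes were -0.04, -0.09 and -0.03. The split depended on the scaling in the tumours. With scaling by total reads the counts were 7 and 22 (MMTV-PyMT) and 8 and 38 (implanted), while the median of all genes was -0.14 and -0.25.

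The kinases, phosphatase subunits and eIF2α itself (6 genes) had more members that rose than fell in each tissue. The counts of risen and fallen genes were 5 and 0 (normal), 2 and 0 (MMTV-PyMT) and 4 and 1 (implanted). At an unadjusted p under 0.05, and with voom, 0 were lower in the first 2 tissues. Of all tested genes 13.7% and 18.2%, 7.42% and 4.57%, and 20.3% and 18.8% rose and fell, in the same order. Eif2ak2 encodes PKR, an interferon-induced eIF2α kinase that senses double-stranded RNA. It rose by 2.02, 2.06 and 2.56 on the log2 scale in the same order of tissues (adjusted p = 2.19e-06, 1.62e-06 and 4.42e-08). Ppp1r15a encodes GADD34, which brings the phosphatase to eIF2α and so ends the signal. It rose by 1.13, 1.5 and 1.86 (adjusted p = 0.00147, 0.000273 and 7.8e-06), from 15.4 to 60.4 FPKM on average in implanted ECs. The cGAMP effect on Eif2ak4, which encodes the amino acid sensor GCN2, was lower in implanted than in normal ECs by -0.92 (adjusted p = 0.00042).

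The sensors themselves and the proteases of ATF6 (6 genes) moved differently. In normal ECs 3 fell and 0 rose, also at an unadjusted p under 0.05 and with voom. In MMTV-PyMT ECs limma called none, with 1 higher and 2 lower at an unadjusted p under 0.05, and voom called 1 higher. In implanted ECs 1 rose and 1 fell. For all tested genes the shares risen and fallen were 13.7% and 18.2% (normal), 7.42% and 4.57% (MMTV-PyMT) and 20.3% and 18.8% (implanted). Eif2ak3, which encodes PERK, fell by 0.38 in normal ECs (adjusted p = 0.00517) and by 0.64 in implanted ECs (adjusted p = 3.7e-05), and its change in MMTV-PyMT ECs was -0.26 (adjusted p = 0.0752). Atf6 rose in implanted ECs, from 15.8 to 33.6 FPKM on average (1.01, adjusted p = 1.03e-05), and its change there exceeded that in normal ECs by 0.78 (adjusted p = 0.0063) and that in MMTV-PyMT ECs by 0.64 (adjusted p = 0.0288). Ern1, which encodes IRE1α, had changes of -0.02 (normal), 0.09 (MMTV-PyMT) and -0.03 (implanted), none of which passed. Atf6b and the protease gene Mbtps1 fell in normal ECs only past the test (-0.46 and -0.40, adjusted p = 0.000432 and 0.000994), and their changes in implanted ECs were higher by 0.54 and 0.42 (adjusted p = 0.00331 and 0.0118). Mbtps2 had changes of 0.02, -0.24 and -0.07.

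The shares of all tested genes that rose and fell were 13.7% and 18.2% (normal), 7.42% and 4.57% (MMTV-PyMT) and 20.3% and 18.8% (implanted). Among 15 other ER folding genes, those that fell numbered 9 (normal), 0 (MMTV-PyMT) and 5 (implanted) with limma. With voom they numbered 7, 0 and 5. None rose with either, and the genes at an unadjusted p under 0.05 were 1 higher and 10 lower, 0 higher and 1 lower, and 0 higher and 6 lower. Creld2, a chaperone raised by ER stress, fell by 0.91 in normal ECs (adjusted p = 0.000385) and by 0.58 in implanted ECs (adjusted p = 0.00696), and its change in MMTV-PyMT ECs was 0.10 (adjusted p = 0.72). Its cGAMP effect in MMTV-PyMT ECs exceeded that in normal ECs by 1.01 (adjusted p = 0.0105). Of 14 genes of ER-associated degradation, the counts of risen and fallen genes were 1 and 4 (normal), 2 and 0 (MMTV-PyMT) and 3 and 4 (implanted). In MMTV-PyMT ECs 4 were lower at an unadjusted p under 0.05, and voom called 0 lower. Syvn1, the ubiquitin ligase HRD1 of this route, rose by 0.55 in normal ECs (adjusted p = 0.00012) and by 0.65 in implanted ECs (adjusted p = 1.03e-05). It also rose in MMTV-PyMT ECs, by 0.33 (adjusted p = 0.0143), which did not pass with scaling by total reads (0.20, adjusted p = 0.0571), without MMTV-PyMT PBS 3 (0.33, adjusted p = 0.0537) or without MMTV-PyMT cGAMP 2 (0.30, adjusted p = 0.0739). Edem1, which marks misfolded glycoproteins for disposal, rose by 0.96 in implanted ECs (adjusted p = 1.26e-06) and by 0.50 in MMTV-PyMT ECs (adjusted p = 0.00334). Its change in normal ECs was 0.24 (adjusted p = 0.0805), and its effect in implanted ECs exceeded that in normal ECs by 0.73 (adjusted p = 0.00204). Of 8 translocation genes, 2 fell in normal ECs and 0 rose in any tissue with limma or voom. At an unadjusted p under 0.05, 3 were lower in MMTV-PyMT ECs and 1 was higher in implanted ECs.

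Of 19 genes listed as targets of the integrated stress response, 6 rose and 3 fell in normal ECs. The counts were 5 and 2 in MMTV-PyMT ECs and 6 and 3 in implanted ECs. All tested genes rose and fell with shares of 13.7% and 18.2%, 7.42% and 4.57%, and 20.3% and 18.8% in this order. Nupr1, a small stress-induced regulator, rose by 1.57 (normal), 1.10 (MMTV-PyMT) and 2.93 (implanted, adjusted p = 2e-05, 0.00102 and 6.79e-09 in this order). In implanted ECs its mean level went from 4.05 to 35.8 FPKM, and that change exceeded the one in MMTV-PyMT ECs by 1.84 (adjusted p = 0.000494). Bbc3, which encodes the pro-apoptotic protein PUMA, rose by 1.19 in implanted ECs (adjusted p = 4.69e-05) and by 0.78 in MMTV-PyMT ECs (adjusted p = 0.00742), and its change in normal ECs was 0.09 (adjusted p = 0.742). Ddit4, an inhibitor of mTORC1, fell by 1.12 in normal ECs (adjusted p = 1.8e-05) and by 0.57 in MMTV-PyMT ECs (adjusted p = 0.0109), and its change in implanted ECs was -0.19 (adjusted p = 0.294). The cGAMP effect on Slc7a5, an amino acid transporter, was lower than in normal ECs by -1.06 in MMTV-PyMT ECs (adjusted p = 0.0133) and by -1.78 in implanted ECs (adjusted p = 0.000116).

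**Figure D4:**
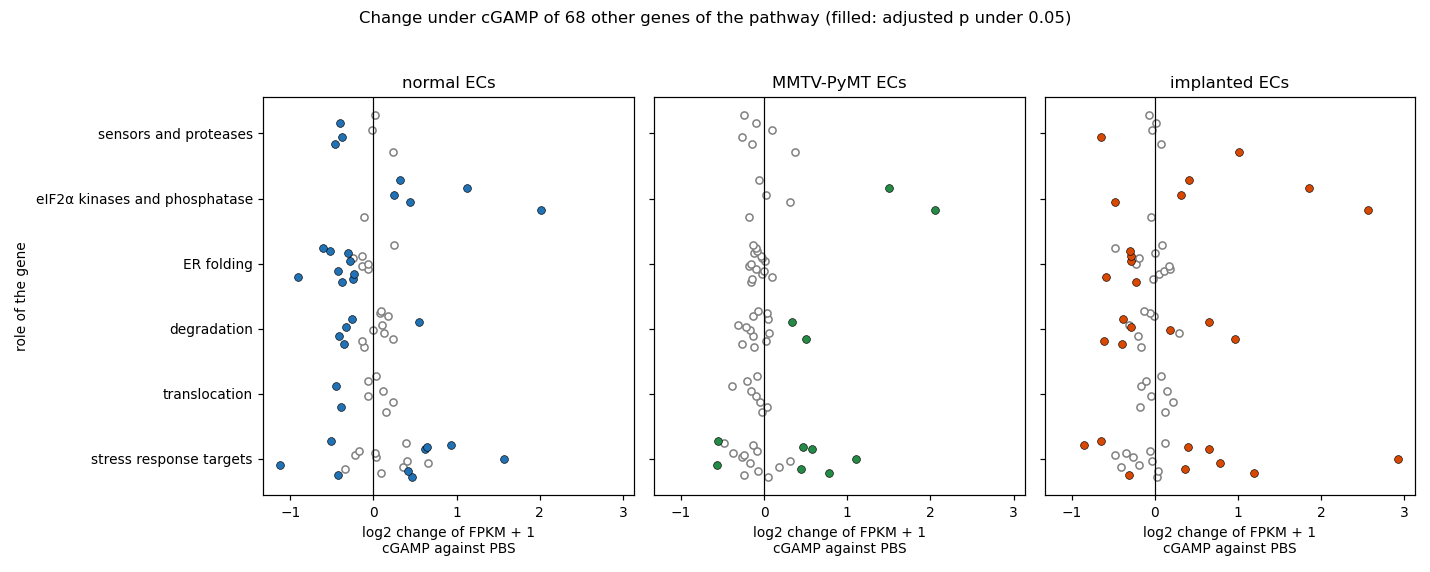
Log2 change of FPKM + 1 under cGAMP (x axis) of the 68 other genes of the pathway, 1 point per gene, by role (y axis), with 1 panel for each tissue and filled points where the adjusted p was under 0.05. Filled ER folding genes all lie left of 0, and the points farthest to the right are Nupr1 (2.93) and Eif2ak2 (2.56) in implanted ECs.

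Under PBS, 36 of the 68 genes were higher and 6 lower in MMTV-PyMT than in normal ECs, where 29.8% of all genes were higher and 26.6% lower. In implanted against normal ECs 35 were higher and 8 lower (24 and 12 with scaling by total reads), where 25% and 23.6% of all genes were. Of the 8 translocation genes, 7 were higher and 0 lower in MMTV-PyMT ECs (limma, also with voom and at an unadjusted p under 0.05), and 4 were higher and 2 lower in implanted ECs. Of the 15 ER folding genes, 9 were higher and 1 lower in MMTV-PyMT ECs, and 11 were higher and 1 lower in implanted ECs. P4hb, a disulfide isomerase, was 1.78-fold higher in MMTV-PyMT ECs and 2.59-fold higher in implanted ECs (adjusted p = 4.63e-06 and 2.18e-08). Sec61a1, the core of the translocation channel, was 2.0-fold and 1.66-fold higher (adjusted p = 1.93e-07 and 5.15e-06). Ppp1r15a was lower, by -1.18 and -1.26 (adjusted p = 0.000371 and 0.000259), the direction opposite to its change under cGAMP. Between implanted and MMTV-PyMT ECs, 20 were higher and 20 lower (14 and 29 with scaling by total reads), where 20.8% and 24.6% of all genes were. Mural markers (221 to 306 FPKM) were below and epithelial markers (892 to 1010 FPKM) above those of normal PBS in MMTV-PyMT PBS. Implanted PBS held mural markers at 202 to 244 FPKM against 991 to 1110 FPKM in normal PBS, and fibroblast markers at 235 to 264 FPKM against 95.7 to 117 FPKM. Of the fibroblast markers only Col1a1 was higher past the test (186 against 33.8 FPKM on average). Dcn (2.25 against 11.2 FPKM) and Lum (2.21 against 6.28 FPKM) were lower, and Pdgfra, Col3a1 and Fap did not pass. The part of such cells in these differences was not tested.

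As a description over the 18 libraries, the tested genes whose log2(FPKM + 1) followed Hspa5 most closely were Tlnrd1 (Pearson r = 0.931), Actr2 (0.93) and Mgat4a (0.93). For Atf3 they were Osmr (0.926), Ppp1r15a (0.915) and Tiparp (0.915), and for Ddit3 Gm42544 (0.851), Mast2 (0.845) and Gas7 (0.835). Between members the values with Hspa5 ran from -0.791 (Dnajb9) to 0.658 (Trib3). All such values share libraries and their group structure, so no test goes with them.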

How the data were processed

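Bulk RNA-seq was carried out on ECs sorted as live, CD45-negative and CD31-positive cells, with a directional library kit. According to the study, reads were aligned with STAR 2.7 to mm10 and counted with HTSeq. The authors deposited 1 table of FPKM values with 16248 genes and 18 columns, and how the counts became FPKM and whether strand was used are not given in the sources used here. The tumour type stands in 12 column names. The 6 without one (treatment and number alone) were taken as normal ECs.

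Whole reads were recovered from the FPKM with exon lengths of GENCODE M21 (98.57% of values whole within 0.02 reads) and gave the depth. Each library differed from its replicates by more than sampling noise (chi-square per gene 4.08 to 31.32). Reads carry no molecular identifiers, so depth covers counting error only. Genes that reached 1 FPKM in 3 or more libraries were tested on log2(FPKM + 1) in R 4.3.3 with limma 3.58.1 (eBayes, trend, 2-sided), with 1 mean per group over all 18 libraries and Benjamini-Hochberg adjustment over 13983 genes, in 9 comparisons. The steps were tested on simulated data.

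The members and gene lists were chosen with earlier results of these data known. All members, all 6 sensors, and in each other list and comparison up to 2 passing genes with the largest change were eligible to be named. Alternatives were a pseudocount of 0.1, no filter, a mean FPKM of at least 5, scaling by total reads, only the groups compared, a replicate block, voom on recovered reads, and leaving out each library. Libraries with the same number did not deviate together (correlations of 45 pairs from -0.35 to 0.29, 8 over 0.1), so the numbers were not taken as pairs.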

Additional observations from a re-analysis of the deposited data

Results flagged for a closer look

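The effect of cGAMP on 4 members differed between tissues by the test of the difference itself (limma, adjusted p under 0.05). For Atf4 the effect in MMTV-PyMT ECs was lower than in normal ECs by -0.74, and the effect in implanted ECs was above that in MMTV-PyMT ECs by 0.45. The difference of 0.45 did not pass in 11 of 25 alternatives. For Trib3 the MMTV-PyMT effect exceeded the normal one by 0.77, and the implanted effect exceeded it by 0.90. For Atf3 the effect in implanted ECs was above that in normal ECs by 1.19. For Xbp1 the effect in implanted ECs was below that in normal ECs by -0.75 and below that in MMTV-PyMT ECs by -0.70. Groups of 3 libraries are too small for the check for a single library that stands apart.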

How the results depend on the processing

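Of 90 member results, 42 passed, and 30 of these passed with the same sign in all 25 alternatives (18 of them leaving out 1 library). The 12 that did not are named in the report with their values, and 0 changed sign. Because the table held no genes at 0, genes below detection in any library were not analysed here. Low members (Trib3 and Ddit3, from 39 and 52 reads) had the widest counting error.

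Counts of members that passed moved to 4 in MMTV-PyMT ECs under cGAMP and to 5 for the effect in implanted minus normal ECs with scaling by total reads, and to 1 for implanted minus MMTV-PyMT ECs with only the groups compared. Counts of other pathway genes moved with scaling by total reads to 29 and 46 under cGAMP in MMTV-PyMT and implanted ECs, and to 10 and 20 for the effect in MMTV-PyMT and in implanted minus normal ECs. With only the groups compared they were 16 in implanted ECs and 7 for MMTV-PyMT minus normal ECs, and with a mean FPKM of at least 5 they were 8 for MMTV-PyMT minus normal and 11 for implanted minus MMTV-PyMT ECs. The cause was not tested, other than that scaling by total reads moves all genes by 1 constant per library.

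Leaving out 1 library, the members that passed numbered 1 to 3 in MMTV-PyMT ECs under cGAMP, 1 to 2 for MMTV-PyMT minus normal, 3 to 5 for implanted minus normal, 1 to 2 for implanted minus MMTV-PyMT, 5 to 8 for MMTV-PyMT against normal and 4 to 8 for implanted against MMTV-PyMT ECs under PBS. Other pathway genes numbered 7 to 17 in MMTV-PyMT ECs under cGAMP, 3 to 7 for MMTV-PyMT minus normal and 4 to 9 for implanted minus MMTV-PyMT ECs.

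Values that changed sign had all been near 0 or had not passed, except Pdia3. With scaling by total reads they were, under cGAMP, Xbp1 -0.12, Atf4 -0.06 and Ern1 -0.02 in MMTV-PyMT ECs and Ddit3 -0.10, Atf6b -0.22 and Mbtps1 -0.27 in implanted ECs. For effects between tissues they were Ddit3 -0.00 (MMTV-PyMT minus normal), Pdia3 -0.00 (implanted minus normal) and Trib3 -0.03 (implanted minus MMTV-PyMT), and under PBS Atf4 -0.11 (implanted against normal) and Pdia4 -0.04 (implanted against MMTV-PyMT). Leaving out 1 library, the ranges that crossed 0 were, under cGAMP, Xbp1 -0.02 to 0.14, Ddit3 -0.06 to 0.44, Ern1 -0.04 to 0.03 and Mbtps2 -0.02 to 0.08 in normal ECs, Xbp1 -0.06 to 0.13 in MMTV-PyMT ECs, and Hsp90b1 -0.10 to 0.02 and Ern1 -0.10 to 0.04 in implanted ECs. For effects they were Xbp1 -0.12 to 0.07 and Ddit3 -0.12 to 0.37 (MMTV-PyMT minus normal), Herpud1 -0.19 to 0.05 and Ddit3 -0.27 to 0.22 (implanted minus normal) and Pdia4 -0.13 to 0.03 (implanted minus MMTV-PyMT). Under PBS they were Ddit3 -0.12 to 0.10 (implanted against normal) and Hsp90b1 -0.06 to 0.06 (implanted against MMTV-PyMT).

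With the replicate number as a block, members that passed numbered 5, 1 and 6 under cGAMP in normal, MMTV-PyMT and implanted ECs, the same counts as without it, and the replicate block ended the call of no member. The libraries share only a number.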

Other observations

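Of 12 heat shock genes, whose products act outside the ER, in the cytosol or (Hspd1 and Hspe1) in mitochondria, the counts of risen and fallen genes under cGAMP were 1 and 7 (normal), 0 and 0 (MMTV-PyMT) and 1 and 2 (implanted). The shares of all tested genes were 13.7% and 18.2%, 7.42% and 4.57%, and 20.3% and 18.8% in the same order. In MMTV-PyMT ECs, 4 were higher at an unadjusted p under 0.05 with limma, and voom called 0 after adjustment. Hsph1, a co-chaperone of HSP70, fell by 1.67 in normal ECs (adjusted p = 0.000175), from 17.4 to 4.77 FPKM on average. Hspb1, a small heat shock protein, fell by 0.92 in normal ECs (adjusted p = 0.00207) and by 0.73 in implanted ECs (adjusted p = 0.0076). Hspd1, the mitochondrial chaperonin, fell by 0.65 in normal ECs (adjusted p = 0.00449) and by 0.62 in implanted ECs (adjusted p = 0.00462). Immediate-early genes fell under cGAMP in 7 of 11 cases in normal ECs and in 4 of 11 in MMTV-PyMT ECs, with 0 that rose in either with limma, with voom, or at an unadjusted p under 0.05. Of all tested genes 18.2% (normal) and 4.57% (MMTV-PyMT) fell, and 13.7% and 7.42% rose. Btg2, an antiproliferative gene, fell by 1.15 in normal ECs and by 1.01 in MMTV-PyMT ECs.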
